A study of Mus musculus with 2 samples.

Results

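*Skint3*, *Skint5*, *Skint6* and *Skint7* are 4 of the 11 *Skint* genes among the 32285 genes counted in single cells of mouse back skin and preputial gland (PG), a sebaceous gland of the genital region. They were picked by name because of their measured levels in the keratinocytes of these same cells. Their differences between keratinocyte classes and between the tissues are therefore described and not tested, and the other 7 *Skint* genes are given for comparison.

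*Skint* genes encode membrane proteins with immunoglobulin-like domains, related to the butyrophilins. The founding member, *Skint1*, is needed in the thymus for the selection of dendritic epidermal T cells, the gamma-delta T cells that live between the keratinocytes of mouse epidermis. Keratinocytes divide in the basal layer, where they make keratin 5 and keratin 14, and then move up through the suprabasal layers, where they make keratin 1 and keratin 10, into the granular layer, where they make loricrin (*Lor*). What the *Skint* genes other than *Skint1* do is much less well known.

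The cells came from 3 male wild-type C57BL/6 mice aged 52 weeks, without any treatment. Biopsies of the back skin were pooled, and so were the glands, and each pool gave 1 library of 3′ RNA tags. With 1 library per tissue there was no replicate and no test, so every interval below is an exact 95% interval that covers counting error only. The skin library held 8899 cells that passed the filters (at least 500 genes, at least 1000 molecules and at most 10% mitochondrial molecules), with 27407186 unique molecular identifiers (UMIs, counted RNA molecules), and the PG library held 4699 cells with 15270076 UMIs. Median depth per cell was 2386 UMIs (skin) and 2729 UMIs (PG). The files list 6794880 barcodes for skin and 737280 for PG, although the labels name the same 3′ kit for both. A difference in chemistry between the libraries was not tested and cannot be told apart from the tissue, which holds for every PG over skin value below. Of the 77142 barcodes listed for both, 0 passed the filters in both.

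Cells were classed by marker genes. Skin gave 3358 basal cells, 408 cells that passed the gates of both basal and suprabasal cells, 763 suprabasal and 81 granular cells. Together these made up the 4610 cells called interfollicular epidermis here. It also gave 1779 follicle cells, of which 624 were upper follicle cells carrying *Krt79* and *Cst6*, and 1429 non-epithelial cells. The 2874 epithelial cells of PG were 1402 basal cells, 915 sebocytes, 535 cells that passed the upper follicle gate and 22 of the bulge and outer sheath. Class names stand for the gates alone. PG had no suprabasal or granular class, and *Krt10* stood at 28.3 CPM (UMIs of the gene per 1000000 UMIs of the class) in its basal cells and 32.6 CPM in its upper follicle cells. In skin, *Krt10* stood at 436 CPM in basal and 1867 CPM in upper follicle cells. *Krt17*, a marker of the upper follicle gate, was at 1044 CPM in basal, 102 CPM in suprabasal, 2071 CPM in granular and 12221 CPM in upper follicle cells of skin. Whether follicle cells are among the basal and granular cells was not tested. The gates lie on continuous scores, and 345 of the basal cells of PG but 81 of those of skin were within 25% above the basal limit.

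All 11 *Skint* genes lie in 1 stretch of chromosome 4 (GRCm38, chr4:111919392-114245028, 2325.64 kb), and the 11 coding genes that the GENCODE annotation (release M21) places there are these genes. *Skint7* is at chr4:111972923-111988223 and *Skint3* at chr4:112232245-112300468, both on the plus strand. *Skint6* at chr4:112804616-113286973 and *Skint5* at chr4:113477891-113999503 are on the minus strand, next to each other with 190.917 kb between them. *Skint6* with 49 exons and *Skint5* with 59 exons span 482.358 kb and 521.613 kb, whereas *Skint3* spans 68.224 kb with 10 exons and *Skint7* 15.301 kb with 7 exons. *Skint6* overlaps an antisense gene, *Gm12823*, and 2 pseudogenes.

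The 250 bases before the start of each gene, from RefSeq on GRCm38.p6, are shown because those of *Skint5* and *Skint6* are nearly the same and because *Skint3* and these 2 share a run of letters. They read 5′ to 3′ on the strand of the gene, from chr4:112231995-112232244 for *Skint3*, chr4:113999504-113999753 for *Skint5*, chr4:113286974-113287223 for *Skint6* and chr4:111972677-111972926 for *Skint7*. Capitals mark the longest run of letters that *Skint3*, *Skint5* and *Skint6* share and, in *Skint7*, the letters of a TATA box on the other strand.
Skint3: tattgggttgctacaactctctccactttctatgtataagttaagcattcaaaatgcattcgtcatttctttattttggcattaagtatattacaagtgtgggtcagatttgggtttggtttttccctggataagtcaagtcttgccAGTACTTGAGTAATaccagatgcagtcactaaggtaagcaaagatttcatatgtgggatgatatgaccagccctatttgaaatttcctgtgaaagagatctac
Skint5: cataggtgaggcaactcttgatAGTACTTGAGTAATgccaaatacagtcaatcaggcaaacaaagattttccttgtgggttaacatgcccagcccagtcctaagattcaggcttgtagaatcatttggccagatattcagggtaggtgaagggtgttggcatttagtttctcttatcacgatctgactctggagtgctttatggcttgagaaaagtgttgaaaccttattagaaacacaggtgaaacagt
Skint6: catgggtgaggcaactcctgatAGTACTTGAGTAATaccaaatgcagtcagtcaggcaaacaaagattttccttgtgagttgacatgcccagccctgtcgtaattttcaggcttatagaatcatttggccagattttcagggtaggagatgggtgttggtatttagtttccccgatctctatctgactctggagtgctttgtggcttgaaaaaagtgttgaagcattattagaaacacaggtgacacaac
Skint7: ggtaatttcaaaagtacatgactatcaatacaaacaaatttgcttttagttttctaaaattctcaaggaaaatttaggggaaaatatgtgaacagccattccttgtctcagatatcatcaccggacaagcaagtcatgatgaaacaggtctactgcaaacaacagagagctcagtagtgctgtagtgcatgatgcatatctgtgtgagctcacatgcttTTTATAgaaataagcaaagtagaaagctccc

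The promoters of *Skint5* and *Skint6* had the same base at 222 of 250 positions (88.8%), with a longest identical run of 26 bases. Every other pair of *Skint* promoters, pairs with *Skint5* or *Skint6* included, was 41.8% to 59.9% identical when aligned over the whole window. Such an identity can miss a stretch shared at shifted positions. *Skint7* and *Skint8* were 49.4% identical by it but shared an identical run of 51 bases. The shared run AGTACTTGAGTAAT has 14 bases. This run was found in 5 of the 12 *Skint* start regions (*Skint1*, *Skint3*, the second start of *Skint4*, *Skint5* and *Skint6*) and in no other of the 32851 promoters searched, so that 0.0152% of all held it. Nothing is read from that share, since the run was picked as the longest that *Skint3*, *Skint5* and *Skint6* hold and any run so long is rarely met. The run began 228 bases before the start in both *Skint5* and *Skint6* and 103 bases before it in *Skint3*, and *Skint7* did not have the run. *Skint7* alone of the 4 had the letters TATAAA on either strand, beginning 31 bases before the start, which 12.4% of all promoters had. The Sp1 motif GGGCGG (32.7% of promoters), the AP-1 motif TGANTCA (6.75%) and the Grainyhead motif AACCNGTT (1.79%), searched on both strands, were in none of the 4 windows, and CCAAT (33.8%) was in that of *Skint3* only. GC content was 36.8% in *Skint3* and *Skint7*, 41.6% in *Skint5* and 42.8% in *Skint6*, against a median of 52.4% over all promoters. These matches describe the letters and say nothing of a factor's binding.

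In the interfollicular epidermis of skin, *Skint3*, *Skint5* and *Skint6* were low in basal cells and high in suprabasal cells, and *Skint7* was present in both. *Skint3* went from 7.13 CPM in basal cells (69 UMIs, 5.55 to 9.03) to 104 CPM in suprabasal cells (312 UMIs, 92.9 to 116), 14.6-fold higher. *Skint5* had the widest step of the 4, from 0.827 CPM (8 UMIs, 0.357 to 1.63) to 109 CPM (326 UMIs, 97.3 to 121), a log2 ratio of 7.04 (6.04 to 8.26). *Skint6* went from 2.38 CPM (23 UMIs, 1.51 to 3.57) to 65.4 CPM (196 UMIs, 56.6 to 75.3), 27.5-fold higher. The counting intervals of the classes lie far apart for each of these genes. *Skint7* went from 22.6 CPM in basal cells (219 UMIs, 19.7 to 25.8) to 43.7 CPM in suprabasal cells (131 UMIs, 36.6 to 51.9), a log2 ratio of 0.95 (0.63 to 1.27). Cells with both gates lay between the classes for *Skint3* (19.8 CPM), *Skint5* (16.5 CPM) and *Skint6* (23.1 CPM), but held the highest level of *Skint7*, 57.3 CPM (87 UMIs, 45.9 to 70.7). A ratio of at least 2-fold was reached by 3 of the 4 genes and by 8.3% of the 11727 genes with enough UMIs. Because the genes were picked on such levels, nothing is read from that comparison. The suprabasal cells were also deeper, with a median of 3281 UMIs against 2501.5 in basal cells, which CPM corrects for in the sum and not in a share of cells with a UMI.

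**Figure D1:**
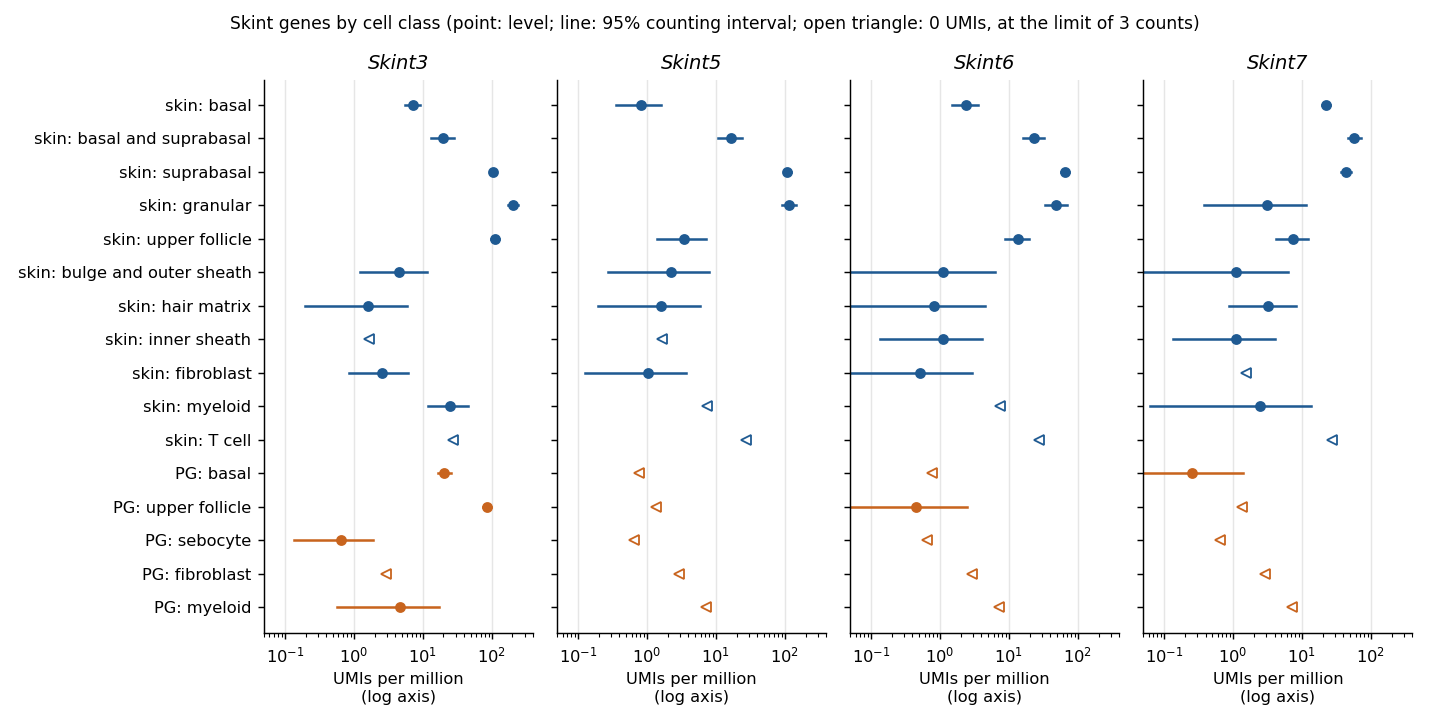
The plot of levels by class gives CPM on a log axis for each of the 4 genes, one row per tissue and cell class. Points are levels, lines are exact 95% counting intervals, and open triangles stand at the limit that 0 UMIs allow. *Skint3* is high in suprabasal (104), granular (203) and upper follicle cells (113) of skin and in upper follicle cells of PG (86.1), *Skint5* and *Skint6* in suprabasal and granular cells of skin, and *Skint7* in skin cells with basal or suprabasal gates.

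The granular cells, the last living layer, set the 4 genes further apart. *Skint3* reached 203 CPM there (129 UMIs, 170 to 242), a log2 ratio over suprabasal cells of 0.96 (0.66 to 1.27). *Skint5* stood at 115 CPM (73 UMIs), and its ratio of 0.08 (-0.31 to 0.45) had an interval across 0. *Skint6* stood at 48.8 CPM (31 UMIs), with a ratio of -0.42 (-1.02 to 0.13), also across 0. *Skint7* was at 3.15 CPM (2 UMIs, 0.382 to 11.4), 13.9-fold lower than in suprabasal cells, a log2 ratio of -3.79 (-6.86 to -1.91). So *Skint3* was highest in the granular cells, where *Skint7* was nearly absent. The summed CPM of the 4 genes differed little between granular and suprabasal cells (370 against 322 CPM, a log2 ratio of 0.20, -0.01 to 0.41). The granular class is small, with 81 cells at a median of 7381 UMIs. Its *Krt17* level was also far above that of suprabasal cells, as given above.

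Ordering the interfollicular cells by keratins gave the same picture in finer steps. In the 3919 basal to suprabasal cells with at least 10 keratin UMIs, the UMIs of *Krt1* and *Krt10* were taken as a percent of those of *Krt1*, *Krt10*, *Krt5* and *Krt14*. *Skint7* was the first of the 4 whose interval lay above that of its first bin. It went from 18.4 CPM (15.2 to 22.1) in the 2001 cells with under 5% to 38.1 CPM (29.4 to 48.6) in the 585 cells with 5 to 20%. It then stayed between 41.1 and 60.6 CPM in every later bin up to the granular cells. *Skint6* came next by its interval, from 2.93 CPM at 5 to 20% to 12.5 CPM at 20 to 40% and 64.3 CPM in the 792 cells at 95% or more. *Skint5* followed later by its interval, with 1.79 CPM at 20 to 40%, 14.8 CPM at 60 to 80%, 41.7 CPM at 80 to 95% and 105 CPM at 95% or more. *Skint3* was at or under 9.60 CPM up to 60%, then at 19.1, 34.1 and 102 CPM in the last 3 bins. The bins between 20% and 95% held 124 to 147 cells each, so neighbouring values there had overlapping intervals, and *Krt1* and *Krt10* also served as gate markers. From the first bin to the next, *Skint6* went from 1.28 to 2.93 CPM (8 and 5 UMIs) and *Skint5* from 0.481 to 1.17 CPM (3 and 2 UMIs), with overlapping intervals. The order of the genes thus depends on their counts, and their timing was not tested.

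**Figure D2:**
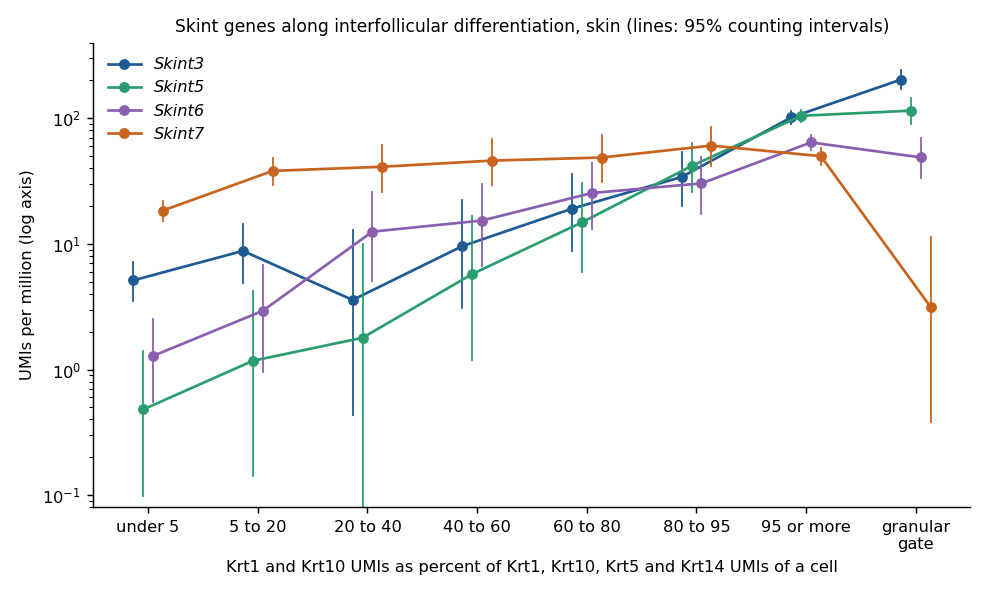
Levels along interfollicular differentiation in skin, in CPM on a log axis, by the percent of *Krt1* and *Krt10* among 4 keratins, with the granular class last. Points are levels of all cells of a bin and lines exact 95% counting intervals. *Skint7* is above 18 CPM from the first bin and at 3.15 CPM in granular cells, while *Skint3*, *Skint5* and *Skint6* begin under 6 CPM and end at 203, 115 and 48.8 CPM.

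Shares of cells with a UMI followed the levels. A UMI was seen in 23.6% of suprabasal cells for *Skint3*, 28% for *Skint5*, 21.2% for *Skint6* and 15.3% for *Skint7*. The basal shares were 1.82%, 0.208%, 0.655% and 5.75%. The shares in fibroblasts, taken as the background at a median of 1791 UMIs, were 0.405%, 0.203%, 0.101% and 0%, the last of which allows up to 0.304% by the limit of 3 counts. The basal share of *Skint5* was thus close to that background. With each cell thinned to 1000 UMIs, the suprabasal shares were 8.91%, 11.4%, 7.73% and 5.77% and the basal shares 0.893%, 0.0298%, 0.119% and 2.47%. Fibroblasts then had 0.203%, 0.203%, 0.101% and 0%. For *Skint7* the basal interval (1.97% to 3.05%) lay above that of fibroblasts (0% to 0.373%), whereas for *Skint3* they overlapped (0.604% to 1.27% against 0.0245% to 0.73%). The share of free RNA was estimated at 5.47% in skin, as the level of epithelial markers in fibroblasts over that in barcodes without a cell. The RNA of those barcodes, scaled by this share, would give 1.60 CPM of *Skint3*, 1.55 CPM of *Skint5*, 0.807 CPM of *Skint6* and 0.308 CPM of *Skint7*. The basal intervals of *Skint3*, *Skint6* and *Skint7* lie above these values, and that of *Skint5* (0.357 to 1.63 CPM) includes its own.

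No cell held many of these molecules, and the most in any cell were 8 UMIs for *Skint3*, 7 for *Skint5*, 4 for *Skint6* and 4 for *Skint7*. Of the 763 suprabasal cells, 332 had no UMI of the 4 genes, 248 had UMIs of 1 gene, 130 of 2, 47 of 3 and 6 of all 4. Their median depths were 2705, 3289, 4054, 6529 and 6204 UMIs, so cells with more of the genes were mostly deeper cells. *Skint3* and *Skint5* were seen together in 92 suprabasal cells, 51.1% of those with *Skint3* and 43% of those with *Skint5*. *Skint5* and *Skint6* shared 72 cells, 33.6% and 44.4% of the cells of each. *Skint7* was seen with *Skint5* in 31 cells (26.5% of the *Skint7* cells), with *Skint3* in 30 (25.6%) and with *Skint6* in 20 (17.1%). Depth was not held equal in these pairs.

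Among the follicle cells, *Skint3* was the only one of the 4 that reached its suprabasal level. In upper follicle cells *Skint3* stood at 113 CPM (225 UMIs, 98.5 to 128), a log2 ratio over suprabasal cells of 0.11 (-0.14 to 0.37). *Skint5* was 31-fold lower than in suprabasal cells at 3.51 CPM (7 UMIs, 1.41 to 7.23), *Skint6* 4.84-fold lower at 13.5 CPM (27 UMIs, 8.92 to 19.7), and *Skint7* 5.82-fold lower at 7.52 CPM (15 UMIs, 4.21 to 12.4). Each of these 3 genes was thus well under its own suprabasal level there. Of the upper follicle cells, 229 also passed the suprabasal gate and 395 did not. *Skint3* was at 118 CPM with that gate and 109 CPM without it (0.10, -0.29 to 0.50), whereas 24 of the 27 UMIs of *Skint6* and all 7 of *Skint5* were in the cells with the gate. *Skint7* had 4 UMIs with the gate and 11 without.

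Deeper in the follicle all 4 genes were scarce. Bulge and outer sheath cells (446) held 4 UMIs of *Skint3*, 2 of *Skint5*, 1 of *Skint6* and 1 of *Skint7*. Hair matrix cells (274) held 2, 2, 1 and 4, and inner sheath cells (435) 0, 0, 2 and 2. The 26 sebocytes of skin had none, which allows up to 24.6 CPM of each. Over the whole follicle against basal cells, the log2 ratio was 2.46 (2.06 to 2.87) for *Skint3*, 1.17 (-0.28 to 2.69) for *Skint5*, 1.14 (0.32 to 1.99) for *Skint6* and -2.60 (-3.31 to -1.97) for *Skint7*. Of the 3 genes with at least 20 UMIs, *Skint3* and *Skint6* were at least 2-fold higher, as were 9.58% of the 12372 genes so counted, and *Skint7* was at least 2-fold lower, as were 8.28%. Nothing is read from these counts, since the genes were picked on their levels.

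In order of level, the skin classes of *Skint3* ran from granular cells to upper follicle and suprabasal cells, which did not separate, and then to all others at 24.5 CPM or less. For *Skint5*, granular and suprabasal cells did not separate, and the cells with both gates followed 6.60-fold lower than suprabasal cells. The order of *Skint6* was suprabasal, granular (0.42, -0.13 to 1.02), then cells with both gates, then upper follicle cells. *Skint7* was highest in cells with both gates and suprabasal cells, which did not separate (0.39, -0.02 to 0.79), followed by basal cells and, 3.01-fold below them, upper follicle cells. Below these ranks each class held 10 UMIs or fewer, except for the basal cells (*Skint3* and *Skint6*) and the cells with both gates (*Skint3*), and most neighbours did not separate.

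Basal cells in division had less *Skint7* by CPM. The 224 basal cells that passed a cycling gate had 8.70 CPM (9 UMIs) against 24.3 CPM (210 UMIs) in the rest, a log2 ratio of -1.48 (-2.63 to -0.53). These cells were also deeper, with a median of 4237.5 UMIs against 2432.5, so this is not a ratio of molecules per cell. For *Skint3* the ratio was 0.50 (-0.63 to 1.48), and *Skint5* and *Skint6* had too few UMIs in the cycling cells, 2 and 1, to compare.

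In PG, *Skint3* was present and the other 3 genes were all but absent. The gland epithelium had 25.8 CPM of *Skint3* (278 UMIs) against 36.4 CPM (540 UMIs) in the interfollicular epidermis of skin, a log2 ratio of -0.50 (-0.71 to -0.29). That ratio depends on the mix of classes, since the skin sum holds neither sebocytes nor follicle cells. The 915 sebocytes of PG held 4558977 of the 10779153 UMIs of its epithelium and 3 UMIs of *Skint3*. By class the PG over skin ratio was 1.53 in basal and -0.39 in upper follicle cells. *Skint5* had 0 UMIs in the gland epithelium against 432 in skin, at least 105-fold lower by the limit of 3 counts, and 0 of all 15270076 UMIs of PG cells, which allows up to 0.196 CPM. *Skint6* had 1 UMI against 285, a log2 ratio of -7.70 (-13.00 to -5.21). *Skint7* had 1 UMI against 439, a log2 ratio of -8.32 (-13.63 to -5.83). The 3 genes were at least 2-fold lower, as were 20.8% of the 13117 genes with enough UMIs, and nothing is read from that count because the genes were picked on these levels. *Skint5* and *Skint6* were highest in the suprabasal and granular classes of skin, which PG did not have, and the part of that difference in cells was not tested. Between classes present in both tissues, *Skint7* was still at 1 UMI in the basal cells of PG against 219 in those of skin, a log2 ratio of -6.47 (-11.78 to -3.98). In upper follicle cells *Skint6* had 1 UMI in PG against 27 in skin, a log2 ratio of -4.92 (-10.28 to -2.32). *Skint5* had 0 UMIs there in PG against 7 in skin, at least 2.62-fold lower by the limit of 3 counts. The upper follicle classes were not alike, with *Krt10* at 1867 CPM in skin and far lower in PG, as given above. In skin, 24 of the 27 UMIs of *Skint6* and all 7 of *Skint5* were in the 229 upper follicle cells that also passed the suprabasal gate (825461 UMIs). PG had 132 upper follicle cells that passed it too (666367 UMIs), with 1 UMI of *Skint6* and 0 of *Skint5*. Such cells were counted as upper follicle and not as suprabasal in both tissues.

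Within PG, *Skint3* was highest in the cells of the upper follicle gate, at 86.1 CPM (193 UMIs, 74.4 to 99.1). Basal cells had 20.7 CPM (81 UMIs, 16.4 to 25.7), a log2 ratio of 2.06 (1.68 to 2.45) between the classes, and sebocytes had 0.658 CPM (3 UMIs), 31.4-fold lower than basal cells. The order of levels was thus the same as in skin, with the upper follicle over basal cells. Against the same class of skin, the upper follicle cells of PG had slightly less *Skint3* (-0.39, -0.67 to -0.11) and the basal cells more (1.53, 1.05 to 2.02). Whether a PG cell of the upper follicle gate also passed the suprabasal gate made little difference (97.5 against 81.2 CPM, 0.26, -0.19 to 0.71). Thinned to 1000 UMIs, 7.48% of upper follicle cells, 2.35% of basal cells and 0.109% of sebocytes had a UMI of *Skint3*. The estimated share of free RNA was higher in PG, where epithelial markers in fibroblasts gave 21.2% and 6.06 CPM of *Skint3* from that source. The fibroblasts of PG themselves had 0 UMIs of *Skint3*, which allows up to 2.91 CPM. Sebocytes, at 0.658 CPM, also lay under 6.06 CPM, so the estimate was too high for *Skint3* in these classes.

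**Figure D3:**
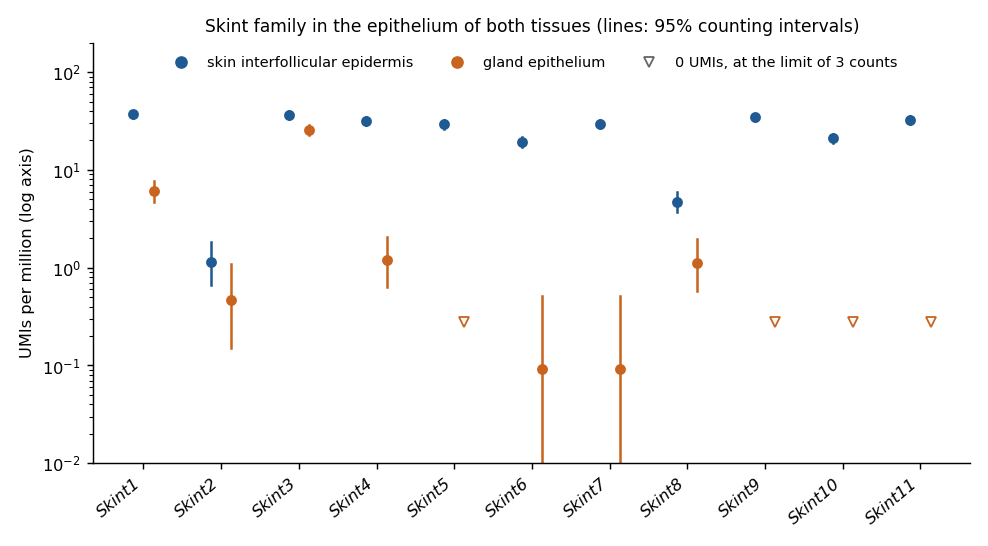
Levels of the 11 *Skint* genes in CPM (log axis) in the interfollicular epidermis of skin and in the gland epithelium of PG, with exact 95% counting intervals as lines and open triangles at the limit of 3 counts for 0 UMIs. *Skint3* lies close in the 2 tissues (36.4 and 25.8), and *Skint5*, *Skint6* and *Skint7* lie at 29.1, 19.2 and 29.6 in skin against 0 or 1 UMI in PG.

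Against the non-epithelial cells of skin, all 4 genes were higher in the interfollicular epidermis. The log2 ratios were 2.41 (1.76 to 3.13) for *Skint3*, 4.82 (3.26 to 7.10) for *Skint5*, 4.81 (2.94 to 7.86) for *Skint6* and 5.43 (3.57 to 8.48) for *Skint7*. All 4 passed 2-fold, as did 15.5% of the 13422 genes with enough UMIs, which again is no support since expression in keratinocytes chose them. The non-epithelial cells held 20 UMIs of *Skint3*, of which 10 were in the 198 myeloid cells (24.5 CPM), and 3, 2 and 2 of the others. T cells, on which *Skint* proteins are thought to act, had 0 UMIs of the 4 genes among 108748, which allows up to 27.6 CPM of each.

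Among the other 7 *Skint* genes, *Skint9* and *Skint10* had steps from basal to suprabasal cells of the size seen in *Skint5* and *Skint6*. *Skint9* was at 1.45 CPM in basal and 121 CPM in suprabasal cells (6.38 on the log2 scale), and *Skint10* at 1.14 and 56.4 CPM (5.63). They differed from *Skint5* and *Skint6* elsewhere. In granular over suprabasal cells the log2 ratio was 0.58 (0.26 to 0.88) for *Skint9* and 1.68 (1.33 to 2.03) for *Skint10*. In upper follicle cells *Skint9* was 2.21-fold and *Skint10* 1.54-fold lower than in suprabasal cells, against 31-fold for *Skint5* and 4.84-fold for *Skint6*. *Skint11* was at 12.4 CPM in basal and 73.4 CPM in suprabasal cells (2.57), and *Skint1*, the gene known for T cell selection, differed by less, at 0.86 (0.58 to 1.14). In suprabasal over basal cells 8 of the 10 *Skint* genes with at least 20 UMIs passed 2-fold, against 8.3% of all genes, *Skint1* and *Skint7* being the exceptions. The 8 include 3 of the 4 genes picked on such levels, so nothing is read from that count.

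Several of the other genes reached or passed their suprabasal level in the upper follicle, as *Skint3* did. The log2 ratio of upper follicle over suprabasal cells was 0.09 (-0.26 to 0.44) for *Skint1*, 0.24 (-0.06 to 0.52) for *Skint4*, 0.95 (0.20 to 1.72) for *Skint8* and 3.51 (2.36 to 4.89) for *Skint2*, while *Skint11* stood at -3.61 (-4.58 to -2.78). So *Skint3* sided with *Skint1*, *Skint2*, *Skint4* and *Skint8* by this ratio, and *Skint5*, *Skint6* and *Skint7* were on the lower side with *Skint9*, *Skint10* and *Skint11*. In PG, *Skint9*, *Skint10* and *Skint11* had 0 UMIs in the epithelium, and *Skint1* had 6.12 CPM against 37.1 CPM in skin (-2.60). At least 2-fold lower in PG were 10 of the 11 genes, all but *Skint3*, against 20.8% of all genes. The 10 include 3 of the picked genes, so nothing is read from that count either. The last 500 bases of *Skint5* and *Skint6* transcripts share an identical run of 76 bases and those of *Skint7* and *Skint8* one of 60 bases, so tags from there could be uncertain between the copies. *Skint3* shares at most 11 bases with any other.

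**Figure D4:**
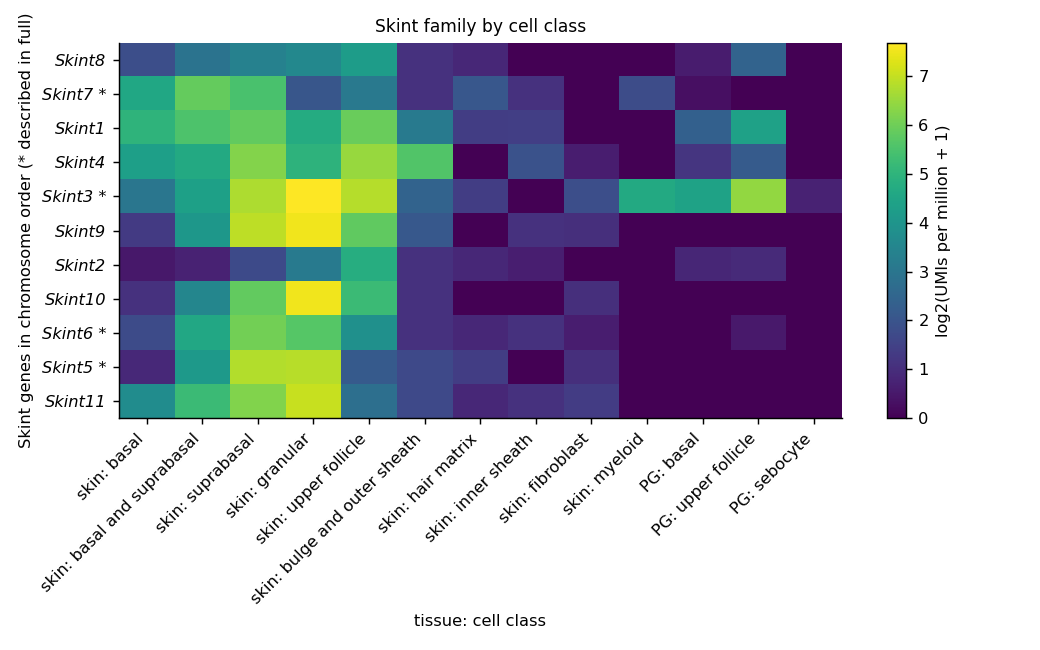
Levels of the 11 *Skint* genes, in chromosome order from top to bottom, by tissue and cell class as log2(CPM + 1) in colour, and asterisks mark the 4 genes described in full. *Skint5* and *Skint6* are bright in suprabasal and granular cells of skin and dark in PG, where *Skint3* is bright in the upper follicle class.

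Over the 18 classes with at least 50 cells, the genes whose log2(CPM + 1) was most like each member's were ranked among 10898 genes by Pearson's r, a description over classes that share 2 libraries. *Skint6* led for *Skint5* with r = 0.95, followed by *Skint9* (0.93), *Skint10* (0.93), *Hal* (0.92), a histidine-degrading enzyme of the upper epidermis, and *C130079G13Rik* (0.92). For *Skint6* they were *Skint9* (0.97), *Gprin2* (0.96), *Skint10* (0.95), *Skint5* (0.95) and *Sprr1b* (0.94), a cornified envelope protein. *Skint7* had *Il22ra2* (0.95), the soluble antagonist of interleukin 22, then *Gm9989* (0.87), *Nat8l* (0.87), *Oas1f* (0.85) and *Cfap57* (0.84), and no *Skint* gene among its 5. The closest to *Skint3* reached only 0.81, with *Dusp22*, *Hcar2* and *Lrrfip2*, then *Orm1* (0.79) and *Tprg* (0.79). Between *Skint3* and *Skint7* r was 0.48. Genes with like levels did not always have promoters that were alike over the whole window. *Skint6* and *Skint9* (r = 0.97) were 50.9% identical, with no identical run longer than 8 bases. *Skint9* and *Skint10* (0.98) were 49.4% identical over the window but shared a run of 19 bases.

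Beside the *Skint* genes, keratinocytes reach epidermal T cells through other ligands, adhesion molecules and cytokines. Of 15 such genes 10 had enough UMIs in basal and suprabasal cells, where 1 was at least 2-fold higher in suprabasal cells (*Il15*, 2.64), against 8.3% of all genes, and 4 were at least 2-fold lower, against 24.9%. The median log2 ratio was -0.57 for the list and -0.29 over all genes. *H60c*, a stress ligand of the receptor NKG2D, had a ratio of 0.48 (0.18 to 0.78). Between PG epithelium and skin interfollicular epidermis, 7 of 13 were at least 2-fold lower by the ratio alone, against 20.8% of all genes, and 2 higher, against 19.1%, with a median of -1.01 against 0.01 over all genes. *H60c* was at 1.30 CPM in PG against 34.6 CPM in skin (-4.74), *Il33*, an alarmin, at 0.371 against 84.5 CPM (-7.83), *Tslp* at 0.278 against 24.0 CPM (-6.43) and *Ccl27a*, a skin-homing chemokine, at 39.8 against 709 CPM (-4.15). *Cd1d1* (2.89) and *Il7* (1.72) were higher in PG. These sums hold unlike classes, with sebocytes in that of PG only and suprabasal and granular cells in that of skin only. The ratios are therefore not of like cells. None of the butyrophilin genes had enough UMIs in the epithelium, and only *Btnl9* could be compared with non-epithelial cells (1 against 32 UMIs).

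Of the 14 differentiation references, 5 were at least 2-fold higher and 3 lower in suprabasal than in basal cells, against 8.3% and 24.9% of all genes. Of 21 genes of dendritic epidermal T cells, 18 had enough UMIs in interfollicular and non-epithelial cells of skin, and 15 of these were at least 2-fold lower in the interfollicular cells, against 24.2% of all genes. Both counts are partly set by the gates and are no support. *Krt5*, *Krt14*, *Krt1*, *Krt10*, *Lor*, *Krt79* and *Krt24* are gate markers among the references. *Trdc*, *Tcrg-C1*, *Cd3e* and *Cd3g* are markers of the T cell gate. The T cells themselves differed between the pools. Of the 64 T cells of skin 43 had a UMI of *Trdc*, the constant region of the delta chain, with 190 UMIs in all, and *Trdv4*, the variable segment used by dendritic epidermal T cells, had 109. The 22 T cells of PG had 0 UMIs of *Trdc* and of *Trdv4* and 60 of *Il17a*, which had 0 in those of skin. Whether these cells and the absence of *Skint5*, *Skint6* and *Skint7* from the gland have anything to do with each other was not tested.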

How the data were processed

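The deposited matrices hold raw UMI counts per gene and barcode, made by the authors' facility with Cell Ranger 4 per the file headers (build mm10 per the labels), with 1 library each for skin and PG. Each library holds a pool of 3 mice, so mice cannot be told apart. The authors' filters are given without limits. Here barcodes with at least 500 genes, 1000 UMIs and at most 10% mitochondrial UMIs were kept, and together they outnumber the approximate cell total in the study's methods.

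Cells were classed by marker scores per 10000 UMIs, with gate limits set after the score distributions were seen. No doublet caller was run. Cells were set apart as mixed (368 in skin, 182 in PG) if they passed several non-epithelial gates or several of the granular, follicle and sebocyte gates. So were cells in a non-epithelial gate that passed the epithelial gate with a score of at least 50 per 10000 UMIs. The epithelial gate itself began at 30, so cells between these limits could stay in a non-epithelial class. Mixed cells can therefore include keratinocytes in the gates of neighbouring classes. Another 687 cells of skin and 738 of PG passed no gate. The counts of a class were summed and given as CPM with exact Poisson intervals. Ratios carry exact binomial (Clopper-Pearson) intervals, and a gene at 0 was set at 3 counts to give a bound. Background shares cover genes with at least 20 UMIs in both classes together. Tags at 3′ ends give no length-scaled level, so levels are compared between classes and not between genes.

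The 4 genes and the lists were chosen with earlier results of these data known. The named genes are the 4, all other *Skint* and butyrophilin genes, genes of keratinocytes that act on epidermal T cells, genes of those T cells, differentiation references, and for each of the 4 genes the 5 most alike by Pearson's r over classes of at least 50 cells, among genes with at least 100 UMIs in skin and without gate markers, mitochondrial and ribosomal protein genes.

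Promoters came from RefSeq and gene positions from GENCODE, both on the build of the files. On simulated counts, 96.2% of 11557 suprabasal over basal intervals held the true ratio. These were Poisson counts, on which the intervals are built, so the result checks the calculation only. It covers no spread between cells, mice or libraries. Python 3.11.15, numpy 2.4.6, scipy 1.17.1, pandas 2.3.3 and matplotlib 3.10.9 were used. Alternatives changed the cell filters, gate limits, the handling of cells in several gates, the averaging and the treatment of free RNA.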

Additional observations from a re-analysis of the deposited data

Results flagged for a closer look

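Barcodes that the filters left out also held UMIs of the 4 genes, and these data entered no comparison. In skin, the 232 barcodes with more than 10% mitochondrial UMIs had 285 CPM of the 4 genes together (104 UMIs, 233 to 345), against 114 CPM in the interfollicular epidermis. That sum is mostly of basal cells, at 33.0 CPM, while suprabasal cells had 322 CPM and granular cells 370 CPM. No class is given for the 232 barcodes. The 81644 skin barcodes with 10 to 100 UMIs, which hold free RNA and no cell, had 78.0 CPM (402 UMIs, 70.6 to 86.0), of which *Skint3* made up 151 UMIs, *Skint5* 146, *Skint6* 76 and *Skint7* 29. In PG, 662 barcodes with more than 10% mitochondrial UMIs had 22.1 CPM (38 UMIs, 15.6 to 30.3) and 61399 free RNA barcodes 28.7 CPM (65 UMIs, 22.1 to 36.5). All of these PG UMIs were *Skint3*.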

How the results depend on the processing

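No paired analysis was possible because each tissue is 1 library. Under 9 alternative settings, the ratios of the summed genes kept their direction in all 36 cases. The summed suprabasal over basal log2 ratio was 3.53 with gate limits lowered to 50%, 2.97 with cells in several gates given to the highest score and 3.49 as a mean over cells. The summed PG over skin ratio was -1.94 with at most 5% mitochondrial UMIs, -1.68 with gate limits doubled, -2.37 with limits at 50% and -2.47 with free RNA subtracted, and the interfollicular over non-epithelial ratio was 4.46 with free RNA subtracted. Of 135 ratios of single genes 1 turned, that of *Skint5* in follicle over basal cells, which was -0.43 (-2.04 to 0.93) with doubled limits. Its interval crossed 0 there and at the main setting. With limits at 50% the ratio was 3.30 (1.62 to 5.65), on 31 against 3 UMIs, so it depends strongly on the gates. The suprabasal over basal ratio ranged from 3.66 to 4.21 for *Skint3*, 5.95 to 7.96 for *Skint5*, 3.92 to 5.61 for *Skint6* and 0.64 to 1.54 for *Skint7*, which passes 2-fold in some settings only. *Skint3* in PG over skin ranged from -0.82, with free RNA subtracted, to -0.14. The PG over skin values with free RNA subtracted (-2.47 and -0.82) used the PG share of 21.2%, which was too high for *Skint3* in fibroblasts and sebocytes. Thinned to 2000 UMIs in place of 1000, shares of cells with a UMI of *Skint3* were 1.54% in basal, 15.9% in suprabasal and 20.4% in upper follicle cells of skin and 14.3% in upper follicle cells of PG. They were 14.8% for *Skint5* in suprabasal cells, 0.452% and 12.5% for *Skint6* and 4.25% and 8.32% for *Skint7* in basal and suprabasal cells. When genes needed 100 UMIs, the share at least 2-fold lower in suprabasal over basal cells was 17.5% in place of 24.9%, and no other background share moved by more. The causes were not tested. For *Skint5*, *Skint6* and *Skint7*, 9 ratios could not be given because too few UMIs were left. Each class rests on 1 library, so mouse to mouse spread is unknown, and a class with 0 UMIs is bounded only by its depth.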

Other observations

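Outside the keratinocytes of skin, *Skint3* was also seen in myeloid cells, at 24.5 CPM (10 UMIs in 9 of 198 cells). Of these UMIs, 6 were in 5 of the 42 myeloid cells with a UMI of *Cd207*, the langerin gene of Langerhans cells, where *Skint3* stood at 66.5 CPM. Free RNA would give 1.60 CPM of *Skint3*. The myeloid cells had 0 UMIs of *Skint5* and *Skint6* and 1 of *Skint7*. The source of these UMIs was not tested. All 4 UMIs of *Skint3* in the 85 endothelial cells were in 1 cell.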
